A study of Mus musculus with 88 samples.

Results

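Gene expression in the bed nucleus of the stria terminalis (BNST) was compared between DBA/2Crl (D2) mice that were resilient to chronic social defeat stress (CSDS) and their unstressed same-strain controls. The comparison held 8 of the 88 libraries of the series, 3 from resilient and 5 from control mice, chosen by region, strain and phenotype as labelled and by no measured value. Each library came from 1 mouse. The same table held the other BNST libraries, from D2 susceptible mice and from C57BL/6Crl (B6) control, resilient and susceptible mice, 28 in all, which served here to estimate the spread and for comparison.

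All 8 mice were inbred D2 males, 8 weeks old at dissection, with no transgene or drug named in the labels. The resilient mice had met unfamiliar CD1 aggressors in repeated defeat sessions, while the controls were never defeated, and both were killed in the morning, 6 to 8 days after the last session. A defeated mouse was classed as resilient when its social interaction ratio was close to or above that of same-strain controls. The gene-level values therefore describe tissue several days after stress, not the response during a defeat.

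The BNST is a small forebrain structure of mostly GABAergic neurons that links the amygdala with the hypothalamus and midbrain, and it is known for its part in sustained anxiety-like states and in control of the stress axis. Corticotropin-releasing hormone (CRH) acts there through the receptors CRHR1 and CRHR2, of which CRHR2 also binds the urocortins. Circulating glucocorticoids enter brain cells and switch on genes through the glucocorticoid receptor, and clock genes keep daily time in most cells.

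The 8 libraries held 13477337 to 16264455 counted reads each. The labelled tissue was compared with part of its defining markers, those of GABA and glutamate neurons. They are given per length as the median RPKM (reads scaled to exon length and to library size) with the range over the 8 mice. Gad1 and Gad2, the enzymes that make GABA, were at 66.4 (53.5 to 86.8) and 92.4 (82.2 to 202). The vesicular glutamate transporters of cortical and thalamic neurons, Slc17a7 and Slc17a6, were at 1.29 (0.0155 to 22.2) and 3.88 (1.06 to 32.4), which placed the GABAergic markers well above both in the median while the glutamatergic ones varied widely between mice. Crh, another defining marker, was low and scattered, as given below. Striatal medium spiny neuron genes had a mean log2 CPM of 7.355 in resilient and 6.96 in control mice. For GABAergic neuron genes these means were 6.433 and 6.155. Whether the dissections held BNST rather than neighbouring striatum was not tested. In bulk tissue, fewer cells of a type and less RNA per cell cannot be told apart.

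Some libraries stood apart from the others of their group. Control mouse 2 lay alone on the first principal component, at -136.4 against -45.11 to 100 for the other BNST libraries, and of the 8 mice compared it had the highest share of mitochondrial reads, 30.85%. The other controls had 11.14% to 23.34%, and the resilient mice had 8.69%, 15.09% and 20.11%, so the groups overlapped (exact permutation test over 56 splits of the mice, two-sided, p = 0.393, adjusted p over 6 library measures = 0.429). Of the 8 mice, control mouse 5 had the highest levels of thalamic neuron genes, and resilient mouse 3 the highest levels of ciliary genes. Resilient mice 1 and 2 belonged to one library preparation set and resilient mouse 3 to the other, while the controls were split 3 and 2. The prefix of the mouse identifiers differed between all resilient and all control mice, so whatever it stands for cannot be told apart from phenotype. Each fit was therefore repeated with single mice omitted. Ranges beside the medians of gene groups run over these 8 fits, and a named gene whose log2 difference changed sign or moved by more than 1.5 times in one of them is given again with that value.

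Across the 17515 genes tested, no gene differed between resilient and control mice at an adjusted p under 0.05 by edgeR's quasi-likelihood test with Benjamini-Hochberg adjustment, where the lowest adjusted p was 0.783. At an unadjusted p under 0.05 there were 953 genes (5.44% of those tested), 385 higher (2.2%) and 568 lower (3.24%) in resilient mice. DESeq2, run as an alternative, called 3 genes at adjusted p under 0.05 (0.0171%) and gave 1146 at an unadjusted p under 0.05, 416 higher and 730 lower. limma-voom called 0, with 956 at an unadjusted p under 0.05, 595 higher and 361 lower. It called 0 again after batch adjustment with ComBat, with 1162 at an unadjusted p under 0.05, 665 higher and 497 lower. All 3 resilient mice lay above all 5 controls for 224 genes (1.28%) and below them for 157 (0.896%). If the mice were interchangeable, a share of 0.01786 would be expected in each direction, and neither percentage exceeded it. The 5.44% likewise lay near the 0.05 that the threshold alone would let pass. The gene counts below use the unadjusted threshold as a description only, and each is to be read against these percentages. Single genes passing in a short list cannot be set apart from them. With single mice omitted, genes higher over all tested ran from 202 (without resilient mouse 2) to 761 (without control mouse 1). Genes lower ran from 202 of 17473 to 1039 of 17482 in the same fits. Counts of list members in such fits are to be read against these. A gene is said to pass where its unadjusted p was under 0.05. Unless a fit is named, this refers to all 8 mice. Beyond the genes marked below, some named genes did not pass in every fit with a single mouse omitted. They included Adamts8, Sel1l3, Siglecf, Rgsl1, Nefh, Sstr2, Baiap3, Magel2, Prkcd, Dlx2 and Gad1. Also among them were Drd3, Grin2a, Cfap126, Elovl7, Ermn, Slc4a4, Lamb3, Angptl4, Sgk1, Tef and Nsdhl.

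The split between directions depended on the tool, as these counts show, and on scaling and filtering, so neither direction led throughout. With no filter on low counts, 942 genes were higher and 699 lower, of 40096 tested. With library sizes alone and no TMM factors, 890 genes were higher (5.08%) and 124 lower (0.708%), and the median log2 difference over all genes moved from -0.037 to 0.12. Log2 differences below are resilient minus control on the TMM scale, and small ones should be read against that shift. Without TMM factors there were 1014 genes in all (5.79%). Leaving out control mouse 2 gave 1245 genes at an unadjusted p under 0.05 (7.13%), 588 higher (3.37%) and 657 lower (3.76%), and put 656 genes above (3.75%) and 495 below (2.83%) the remaining controls with no overlap. Leaving out control mouse 5 gave 641 (3.67%), 278 higher (1.59%) and 363 lower (2.08%). Without both, 655 (3.76%) passed, 329 higher (1.89%) and 326 lower (1.87%). Leaving out resilient mouse 3 gave 634 (3.63%), 293 higher (1.68%) and 341 lower (1.95%). On data simulated from these libraries, the same fit recovered 36.4% of genes changed by 1 and 88% of genes changed by 2 on the log2 scale, so moderate differences could be missed with 3 mice against 5.

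**Figure D1:**
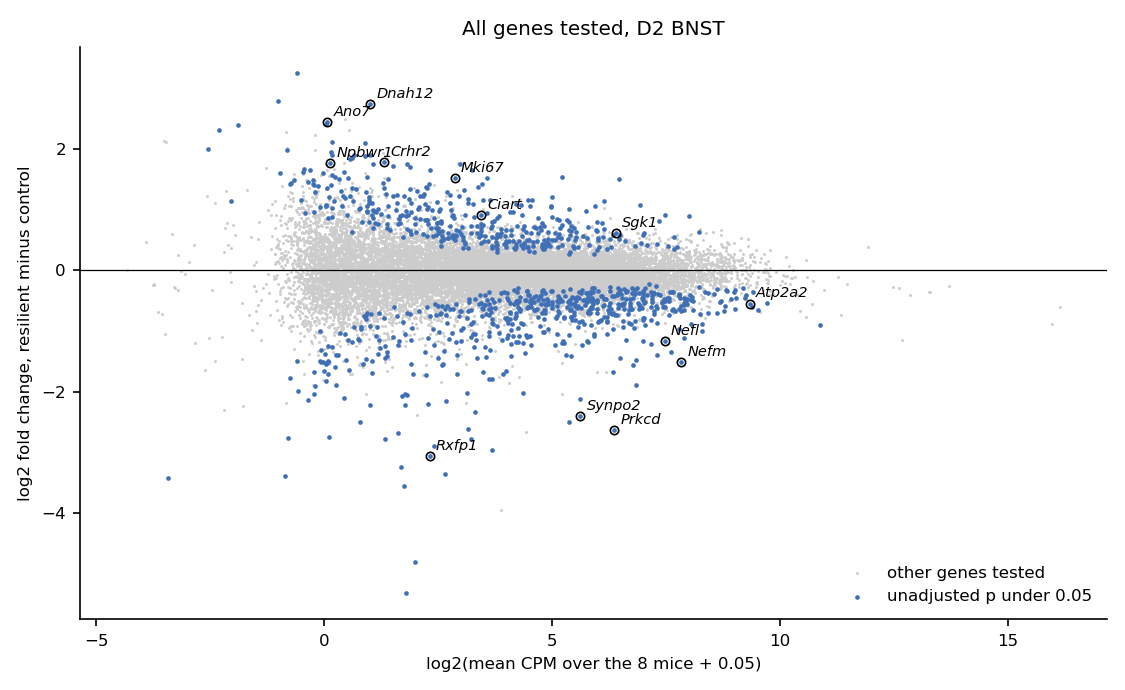
Log2 difference, resilient minus control, against log2 of the mean CPM over the 8 mice plus 0.05, for each of the 17515 genes tested. Blue points had an unadjusted p under 0.05 and circles mark genes named in the text. No point passed the adjusted threshold, and the lowest adjusted p was 0.783.

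Among genes whose 3 resilient values all lay above the 5 controls, the highest ranking by p and size held receptors, a calcium-activated channel family member and genes of dividing or ciliated cells. Values below are counts scaled to library size with TMM factors (CPM) in resilient mice 1, 2 and 3 and in control mice 1 to 5, in that order, with the log2 difference, its standard error and the adjusted p from edgeR. Crhr2, the CRH and urocortin receptor (chr6:55090049-55133016, GRCm38), was at 3.47, 4.2 and 5.54 CPM in resilient and at 2.39, 0.669, 1.11, 1.71 and 0.485 CPM in control mice. The lowest resilient mouse exceeded the highest control, and the difference was 1.79 (SE 0.47, adjusted p = 0.846). It was 1.64 without control mouse 2 and 1.58 without resilient mouse 3. Ano7, of the anoctamin family of membrane proteins (chr1:93373930-93404303), was at 1.64, 2.71 and 1.78 CPM in resilient and 0.704, 0.167, 0.645, 0.149 and 0.162 CPM in control mice. Its difference was 2.44 (SE 0.50, adjusted p = 0.783) by edgeR, with an adjusted p of 0.0252 by DESeq2, at levels near the filter. Ano7 was named for the DESeq2 value, not by the rule of rank and overlap used for the other genes here.

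Tert, the catalytic subunit of telomerase, was at 2.68, 4.11 and 1.72 CPM in resilient and 1.13, 0.837, 0.938, 0.372 and 0.485 CPM in control mice, a difference of 1.91 (SE 0.53, adjusted p = 0.846). Npbwr1, a receptor of neuropeptides B and W, was at 1.46, 2.45 and 1.65 CPM against 0.774, 1.0, 0.528, 0.298 and 0.162 CPM. The groups did not overlap, and the difference was 1.76 (SE 0.55, adjusted p = 0.858). Mki67, a marker of dividing cells, was at 6.02, 9.80 and 20.6 CPM in resilient and 3.66, 4.27, 5.57, 4.32 and 3.34 CPM in control mice. Resilient mouse 3 was the highest by far, and the difference of 1.52 (SE 0.40, adjusted p = 0.846) was 0.90 without it. The remaining genes chosen by the same rule were the membrane transporter Slc4a11 (1.75), the axonemal dynein Dnah2 (1.38), the sperm calcium channel subunit Catsperd (1.5), the Ras GTPase-activating protein Rasal1 (1.16), and Ccdc60 (1.84), Fank1 (1.44), Rgsl1 (1.83) and Togaram2 (1.35), all higher in resilient mice on the log2 scale.

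Genes whose 3 resilient values lay below all controls held a peptide hormone receptor, neurofilament subunits and a calcium pump. Rxfp1, the receptor of relaxin (chr3:79641611-79737880), was at 1.22, 0.265 and 1.12 CPM in resilient and 2.04, 14.5, 6.98, 3.57 and 9.76 CPM in control mice. The controls spanned a wide range, and the difference was -3.07 (SE 0.90, adjusted p = 0.846). Atp2a2, the calcium pump of the endoplasmic reticulum (chr5:122453513-122502225), was at 498, 441 and 557 CPM in resilient and 655, 764, 657, 703 and 876 CPM in control mice. This abundant gene was lower by 0.55 (SE 0.13, adjusted p = 0.846) by edgeR, with an adjusted p of 0.0252 by DESeq2, for which it was named. The third gene past DESeq2's adjusted threshold, the predicted gene Gm43283, had a DESeq2 log2 difference of -3.26 (adjusted p = 0.0468).

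Nefm, the medium neurofilament subunit (chr14:68082590-68124846), was at 119, 91.5 and 104 CPM in resilient and 304, 125, 253, 494 and 326 CPM in control mice, lower by 1.52 (SE 0.41, adjusted p = 0.846). Nefl, the light subunit, was at 125, 85.9 and 88.0 CPM against 139, 288, 174, 214 and 301 CPM, lower by 1.16 (SE 0.28, adjusted p = 0.846). The whole 5233-base span of Nefl lies within that of Nefm on the opposite strand in the annotation used, and whether reads were counted by strand is not given in the sources used here, so the split of reads between these genes is uncertain. Nefh, the heavy subunit on another chromosome, was at 107, 61.3 and 66.0 CPM and 84.9, 89.3, 193, 266 and 398 CPM, groups that overlapped, with a difference of -1.40 (SE 0.53, adjusted p = 0.858).

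The remaining lower genes under the rule were Fgf9, a growth factor (-0.98), Pitpnc1, a phosphatidylinositol transfer protein (-0.81), Sgpp2, a sphingosine-1-phosphate phosphatase (-1.23), Nat2, an arylamine acetyltransferase (-1.60), Siglecf, a sialic acid-binding receptor (-1.54), Aspn, an extracellular matrix protein (-1.24), and Ranbp3l (-1.64). Adamts8, an extracellular protease, and Sel1l3 were lower by 1.49 and 1.42, which became -0.85 and -0.76 without control mouse 5. Omitting control mouse 5 put Pitpnc1 at -0.51.

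**Figure D2:**
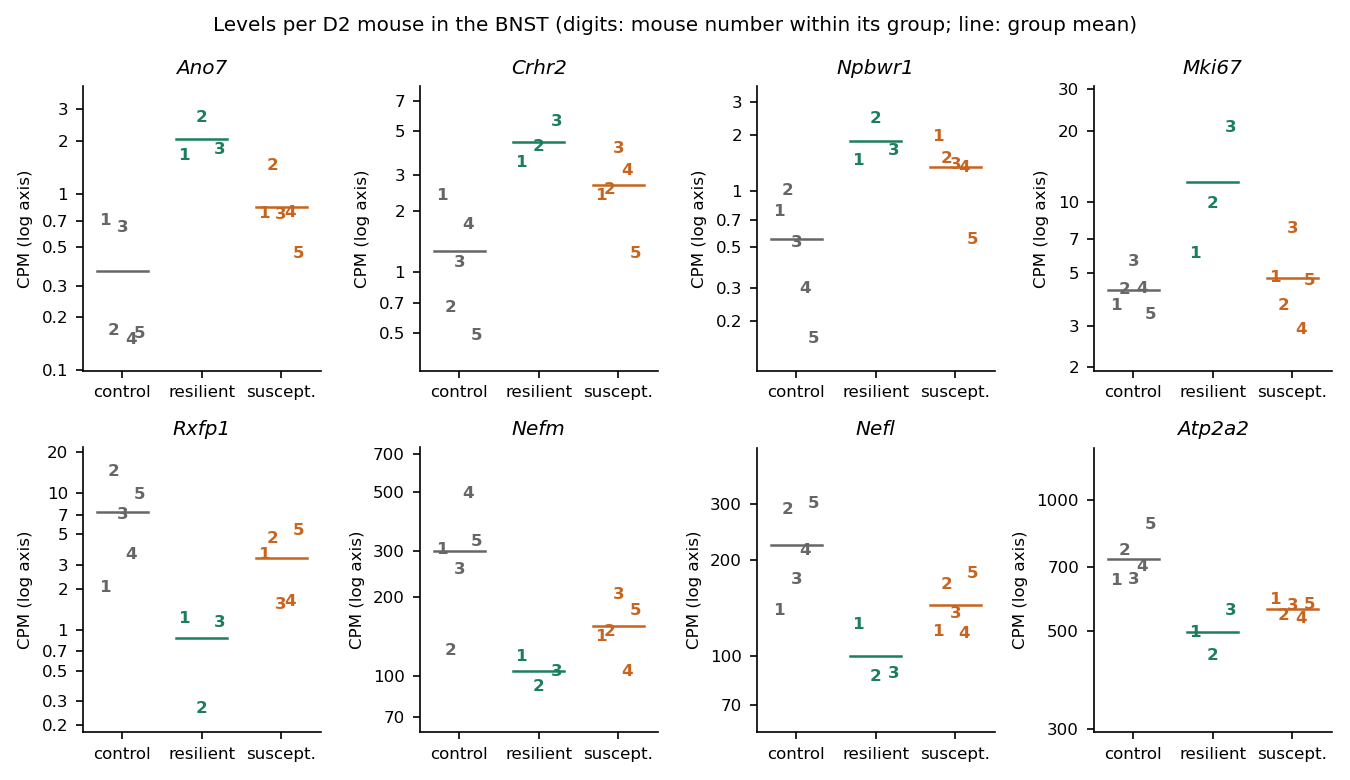
CPM of 8 named genes in each control, resilient and susceptible D2 mouse on a log axis, with mice as numbered points and group means as lines. For these genes the resilient mice lay wholly above or wholly below the controls. The naming rule required this of all but Ano7 and Atp2a2, which were named for their adjusted p in DESeq2.

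**Figure D3:**
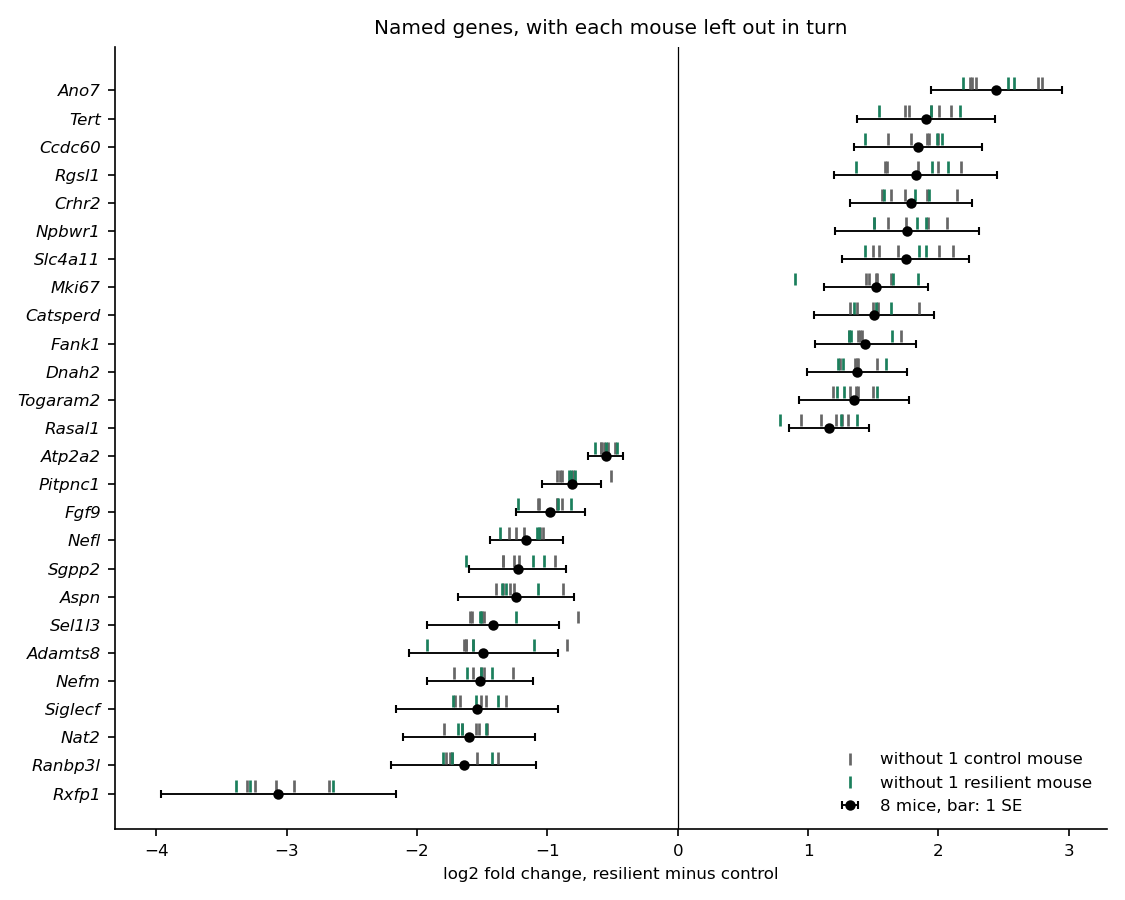
Log2 difference, resilient minus control, of the named genes over all 8 mice (black points, bars 1 SE) and with single mice omitted (ticks, coloured by the group of the mouse left out). The difference of Mki67 went from 1.52 to 0.90 without resilient mouse 3, and that of Sel1l3 moved from -1.42 to -0.76 without control mouse 5.

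Of 30 neuropeptide receptor genes, 3 were higher at an unadjusted p under 0.05 (10%, against 2.2% of all genes) and 0 lower. Their median log2 difference was 0.23 (range 0.070 to 0.38 with 1 to 6 higher and 0 lower), against -0.037 over all genes. The 3 were Crhr2 and the somatostatin receptors Sstr2 (0.98) and Sstr4 (0.96), and Crhr2 alone had groups that did not overlap. The rest of the CRH system did not pass. Crh itself was at 2.31, 4.77 and 3.89 CPM in resilient and 8.38, 8.78, 1.76, 0.223 and 0.162 CPM in control mice, low and scattered in both, with a difference of -0.063 whose sign changed with the processing. Crhr1 differed by -0.47 (adjusted p = 0.913) and the CRH-binding protein Crhbp by 0.90 (adjusted p = 0.913). None of 25 neuropeptide precursor genes passed (median 0.22, range 0.11 to 0.39), the leading ones being Cck (-1.58), Cartpt (1.36) and Tac2 (1.23). Tac2 was at 2.01 without control mouse 1. Omitting control mouse 5 put Crhr1 at -0.28 and Cck at -0.54. Crhr1 was at -0.71 without resilient mouse 1. Omitting resilient mouse 2 put Sstr4 at 0.60, where it no longer passed. Crhr1, Crhbp and Cartpt were at -0.18, 0.51 and 0.90 without resilient mouse 3.

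Markers of neighbouring regions differed in how they were spread over the mice. Of 14 thalamic neuron genes, 10 were lower (71.4%, against 3.24% of all genes) and 0 higher, with a median of -1.37, range -1.57 to -0.65 with 0 to 1 higher and 2 to 11 lower, but none had groups that did not overlap. Their mean log2 CPM was 4.54, 4.37 and 4.21 in resilient mice and 4.4, 4.6, 5.59, 4.55 and 6.78 in control mice, with control mice 3 and 5 high and the others at the level of the resilient mice. Without control mouse 5, 2 were lower, against 2.08% of all genes, and the median was -0.65. Without control mice 2 and 5, 4 were lower, against 1.87%, and the median was -0.71. Prkcd, a protein kinase C abundant in thalamic neurons and also in a class of BNST and amygdala cells, was at 21.3, 20.5 and 15.7 CPM in resilient and 12.7, 11.3, 80.2, 30.4 and 461 CPM in control mice. Its difference of -2.64 was -0.81 (adjusted p = 0.988) without control mouse 5. Synpo2, an actin-binding protein, was lower by 2.41, and by 1.37 without that mouse, and Plekhg1, Ntng1, which encodes a netrin of thalamic axons, and Slc17a6 differed by -1.88, -1.68 and -2.13. The part of these markers in the other differences was not tested. Omitting control mouse 5 put Plekhg1 at -0.81, Ntng1 at -0.66 and Slc17a6 at -1.42, where Plekhg1, Ntng1 and Slc17a6 no longer passed.

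Of 15 hypothalamic and preoptic neuron genes, 2 were higher and 0 lower (median 0.44, range 0.14 to 0.60), the lowest without control mouse 5. Over all genes, 2.2% were higher and 3.24% lower, and 1.28% had resilient mice wholly above the controls. These shares also stand beside the septal, striatal and cortical lists below. Baiap3, which acts in secretory vesicle traffic, was higher by 1.53 (SE 0.62, adjusted p = 0.858) and Magel2, an imprinted gene, by 1.16 (SE 0.50, adjusted p = 0.902), with groups that did not overlap for Magel2, while Otp, a hypothalamic transcription factor, differed by 1.94 and did not pass. Septal neuron genes gave 1 higher of 13, with a median of 0.077, range -0.24 to 0.22, lowest without resilient mouse 1, negative also without control mouse 5 and highest without resilient mouse 3. Striatal medium spiny neuron genes gave 1 higher of 20, with a median of 0.12, range -0.075 to 0.42, lowest without control mouse 5 and highest without control mouse 1. Cortical and hippocampal excitatory neuron genes gave 1 lower of 13 (median -0.30, range -0.54 to -0.13), which was Rorb. Slc17a7, the list's vesicular glutamate transporter, did not pass and was highest in control mouse 5, at 119.7 CPM. Otp was at 3.35 without control mouse 1. Omitting control mouse 5 put Slc17a7 at -0.89.

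Of 14 GABAergic neuron genes, 1 was higher and 1 lower, against 2.2% and 3.24% of all genes (median 0.20, range 0.011 to 0.33). Dlx2, a transcription factor of GABAergic neurons, was at 15.8, 21.5 and 22.6 CPM in resilient and 12.9, 3.76, 13, 15.6 and 8.46 CPM in control mice, higher by 0.89 (SE 0.34, adjusted p = 0.858) with no overlap. Gad1 was lower by 0.36 (SE 0.16, adjusted p = 0.902), and the related Dlx1 differed by 0.58 (adjusted p = 0.902). Gad2 differed by -0.21 and by 0.13 without control mouse 2, where it was highest. Of 16 pan-neuronal genes, 4 were lower, 25% against 3.24% of all genes (median -0.18, range -0.29 to -0.13 with 0 higher and 2 to 5 lower). The 4 were the 3 neurofilament genes and Stmn2, a microtubule regulator of growing axons (-0.64, named after its value was seen). Elavl4, a neuronal RNA-binding protein, differed by -0.84 and did not pass. Mean log2 CPM of the pan-neuronal list was 7.88, 7.87 and 7.81 in resilient and 8.20, 7.94, 8.12, 8.36 and 8.26 in control mice. In susceptible mice the median against the same controls was -0.33, with 5 genes lower, so a lower level was not particular to resilient mice. Stmn2 and Elavl4 were at -0.36 and -0.45 without control mouse 2, where Stmn2 no longer passed. Omitting resilient mouse 1 put Elavl4 at -1.30.

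Among 76 potassium channel genes, 2 were higher and 7 lower, 11.8% against 5.44% of all genes (median -0.11, range -0.20 to -0.038 with 0 to 7 higher and 2 to 15 lower). Without control mouse 2 these counts were 3 and 15, against 3.37% and 3.76% of all genes. Without control mouse 5 they were 2 and 3, against 1.59% and 2.08%. For the receptor lists below, the shares of all genes were 2.2% higher and 3.24% lower. Kcnc2 and Kcna2, voltage-gated channels of fast-firing neurons and axons, differed by -1.48 and -0.70, and Kcna5 by 0.97, while Kcng4, at -2.18, did not pass. GABA receptor subunits gave 2 lower of 16 (median -0.071, range -0.20 to 0.30), among them Gabrb2 (-0.82), which was highest in control mouse 2. Without that mouse, 1 was higher and 0 lower, with a median of 0.30. Glutamate receptor subunits gave 2 lower of 24 (median 0.033, range -0.033 to 0.049). Grin2a, an NMDA receptor subunit, was lower by 0.46 (SE 0.22, adjusted p = 0.902), with groups that overlapped. Steroid and monoamine receptors gave 1 higher and 1 lower of 27 (median 0.042, range -0.12 to 0.13), with Drd3 at 1.22 and Adra1b at -1.45. Gabrb2 was at -0.51 without control mouse 2, where it no longer passed. Omitting control mouse 5 put Kcnc2 at -0.96 and Adra1b at -0.56, where Kcnc2 and Adra1b no longer passed. Kcng4 was at -4.06 without resilient mouse 1. Omitting resilient mouse 2 put Kcna5 at 0.62, where it no longer passed.

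Ciliary and ependymal genes gave 6 higher and 0 lower of 20, 30% against 2.2% of all genes higher. Their median was 1.2, range 0.31 to 1.66 with 0 to 10 higher and 0 lower, but this rested on resilient mouse 3. Mean log2 CPM of the list was 1.01, 1.76 and 2.96 in resilient mice and 0.83, 0.49, 0.64, 1.59 and 0.17 in control mice. Without resilient mouse 3, 0 were higher and the median was 0.31, and within library set 1 it was 0.53, with 0 past the threshold. Dnah12, an axonemal dynein, was at 0.426, 0.994 and 11.1 CPM in resilient and 0.281, 0.837, 0.117, 1.86 and 0.108 CPM in control mice, a difference of 2.74 (SE 1.29, adjusted p = 0.902), and Cfap126, Ak7 and Cfap43 differed by 2.12, 2.1 and 1.75. Foxj1, the transcription factor that defines motile cilia, differed by 0.43 (adjusted p = 0.933). Choroid plexus genes gave 1 higher of 10, Kl (0.74), against 2.2% of all genes, with a median of 0.23, range 0.11 to 0.29. Foxj1 was at 0.17 without control mouse 2. Omitting control mouse 4 put Foxj1 at 0.83. Dnah12, Ak7, Cfap43 and Foxj1 were at 0.19, 0.82, 0.59 and 0.25 without resilient mouse 3, where Dnah12, Ak7 and Cfap43 no longer passed.

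Mature oligodendrocyte genes, which build the myelin sheath, gave 0 higher and 4 lower of 27, 14.8% against 3.24% of all genes lower. Their median was -0.65, range -0.86 to -0.42 with 0 higher and 0 to 12 lower. The difference was negative in all 27, and in 9546 of the 17515 genes tested. The mean log2 CPM of the list was 6.65, 6.19 and 6.00 in resilient and 5.93, 6.28, 6.92, 7.35 and 7.35 in control mice, so the groups overlapped. Within library set 1 the mean difference was -0.098 and within set 2, with 1 resilient mouse, -1.14. Without control mouse 5, 1 was lower (median -0.50), against 2.08% of all genes. Without resilient mouse 1, 10 were lower (median -0.83), against 761 of all 17450 genes. Elovl7, which elongates fatty acids, was at 19.5, 7.88 and 7.00 CPM in resilient and 8.73, 31.7, 19.6, 25.8 and 35.1 CPM in control mice, lower by 1.08 (SE 0.48, adjusted p = 0.902). Ermn, a cytoskeletal protein of myelinating cells, also passed, at -0.94, while Ugt8a, which makes galactolipids, did not, at -0.94. Oligodendrocyte progenitor genes gave 0 in either direction of 23 (median 0.040, range -0.059 to 0.13), and control mouse 2 was low in them. Omitting resilient mouse 1 put Elovl7 at -1.70, and neither Elovl7 nor Ermn passed in every fit with a single mouse omitted.

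Astrocyte genes gave 0 higher and 4 lower of 20, 20% against 3.24% of all genes lower (median -0.31, range -0.41 to -0.19 with 0 higher and 0 to 7 lower). Among the 4 were S100b (-0.59) and the bicarbonate transporter Slc4a4 (-0.34), whose groups did not overlap. The gap junction gene Gjb6 differed by -0.72 and did not pass. The lists that follow are to be read against 2.2% of all genes higher and 3.24% lower. Endothelial genes gave 2 lower of 20 (median -0.21, range -0.30 to -0.15), mural genes 1 lower of 15 (median -0.093, range -0.22 to 0.056), meningeal fibroblast genes 1 higher of 16 (median -0.33, range -0.45 to -0.21) and collagen and basement membrane genes 4 higher and 1 lower of 55 (median -5.91e-05, range -0.15 to 0.042 with 2 to 5 higher and 0 to 6 lower), among them Col6a1 (1.5), Col6a5 (1.75) and Lamb3 (1.11). Microglia genes gave 0 of 22 (median -0.086, range -0.17 to 0.016) and blood genes 0 of 7 (median 0.20, range -0.10 to 0.34). S100b was at -0.36 without control mouse 4, where it no longer passed. Gjb6 was at -0.45 without control mouse 5. Gjb6 was at -1.15 without resilient mouse 1. Omitting resilient mouse 3 put Gjb6 at -0.47 and Col6a5 at 1.04, where Col6a5 no longer passed.

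**Figure D4:**
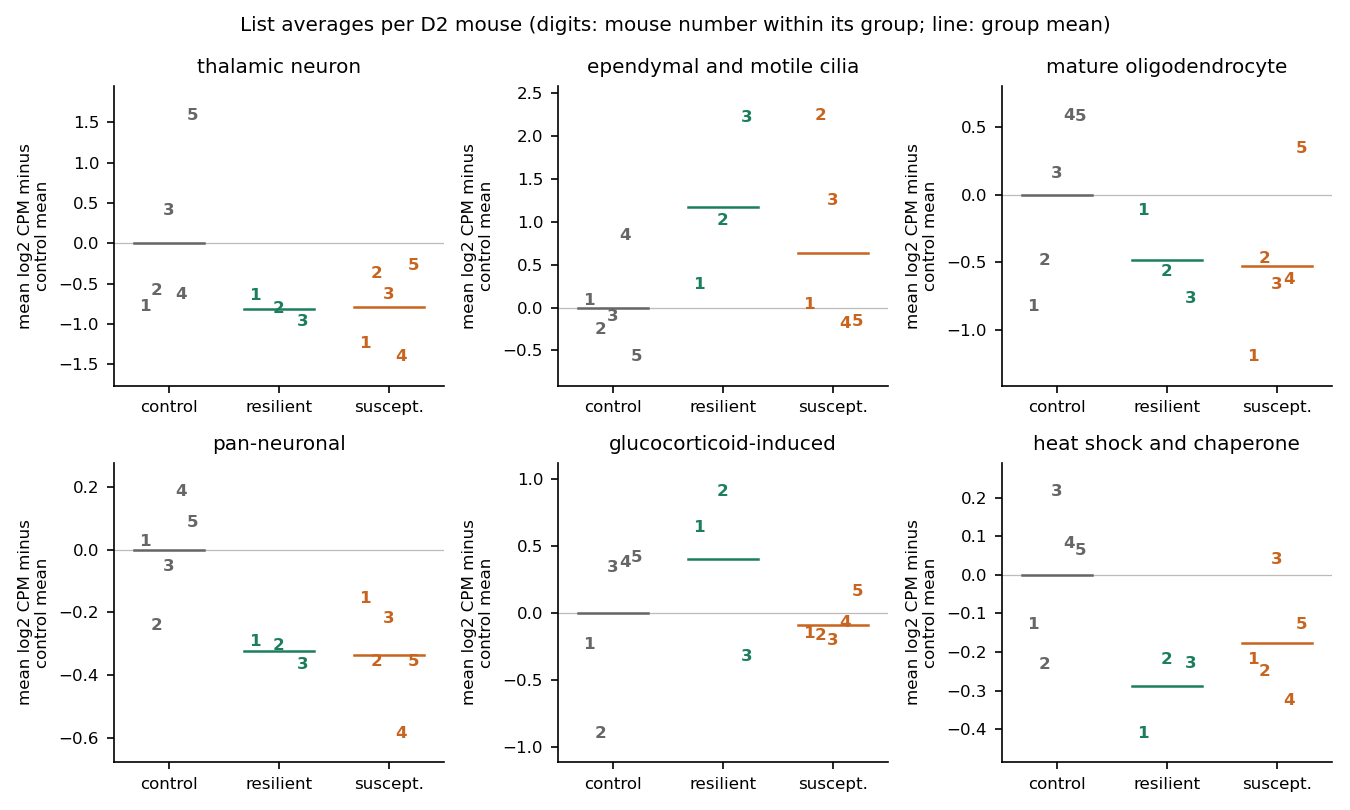
Mean log2 CPM of 6 gene lists in each control, resilient and susceptible D2 mouse, minus the mean of the controls, with mice as numbered points and group means as lines. Among resilient and control mice, control mouse 5 was the highest for thalamic neuron genes (6.78 before subtraction) and resilient mouse 3 for ciliary genes (2.96).

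Glucocorticoid-induced genes gave 5 higher and 0 lower of 23 (21.7%, against 2.2% of all genes higher), with a median of 0.38, range 0.11 to 0.58 with 2 to 7 higher and 0 lower, and the resilient mice were not alike. Within library set 1, which held resilient mice 1 and 2, the mean difference was 1.01, and within set 2, with resilient mouse 3, it was -0.68. Without resilient mouse 3, 7 were higher (median 0.58), against 1.68% of all genes. Without resilient mouse 1, 2 were higher, against 478 of all 17450 genes. Plin4, a lipid droplet protein, was at 20.8, 27.0 and 1.39 CPM in resilient and 1.83, 1.67, 7.68, 3.42 and 11.1 CPM in control mice, with mice 1 and 2 above every control and mouse 3 below, and a difference of 1.66 (SE 0.66, adjusted p = 0.858). Hif3a, a hypoxia-inducible factor, also had mice 1 and 2 above every control and mouse 3 near the lowest controls, at 38.8, 43.9 and 5.74 CPM against 5.00, 5.44, 20.3, 16.7 and 22.3 CPM, and a difference of 1.07 (SE 0.49, adjusted p = 0.902). Sgk1, a kinase switched on by the glucocorticoid receptor, was at 119, 131 and 70.5 CPM in resilient and 67.4, 54.5, 85.1, 69.0 and 73.3 CPM in control mice, higher by 0.61 (SE 0.20, adjusted p = 0.858). Angptl4, a lipase inhibitor, was higher by 0.99 (SE 0.40, adjusted p = 0.858) with no overlap between groups. Fkbp5, a co-chaperone of the receptor, differed by 0.35 (adjusted p = 0.907). Fkbp5 was at 0.21 without control mouse 2. Omitting resilient mouse 2 put Plin4 at 1.10, Hif3a at 0.67 and Fkbp5 at 0.17, where Plin4 and Hif3a no longer passed. Fkbp5 was at 0.54 without resilient mouse 3.

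Clock genes gave 5 higher and 2 lower of 22 (31.8% against 5.44%), with a median of 0.052, range -0.0083 to 0.15 with 2 to 7 higher and 1 to 2 lower. Ciart, a repressor of the clock, was at 17.6, 21.1 and 7.19 CPM in resilient and 8.23, 4.85, 8.62, 10.4 and 8.52 CPM in control mice, with mouse 3 among the controls, and the difference was 0.91 (SE 0.27, adjusted p = 0.846). Per3, a period gene, was at 101, 102 and 53.7 CPM against 54.7, 55.7, 62.9, 61.9 and 57.8 CPM, with mouse 3 below the controls, and differed by 0.54 (SE 0.16, adjusted p = 0.846). Tef, a clock-controlled transcription factor named here for its promoter, was higher by 0.39 (SE 0.15, adjusted p = 0.858). The lower genes were the nuclear receptors Rora (-1.35) and Rorb (-0.83), which are also high in thalamic neurons. The hour of death of each mouse was not used here. Rora and Rorb were at -0.63 and -0.45 without control mouse 5, where Rorb no longer passed.

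The glucocorticoid receptor binds inverted repeats and clock activators bind E-boxes, so the 250 bases before the start of each gene were searched on both strands for GNACA followed after 3 bases by TGTNC and for CACGTG. Promoter sequence came from RefSeq on GRCm38.p6. The first motif was in 127 of 32851 windows (0.387%) and in 3 of the 21 glucocorticoid-induced genes that were matched, of 23 tested. The second was in 1978 windows (6.02%) and in 5 of the 18 clock genes that were matched, of 22, which were Bhlhe41, Ciart, Cry1, Per1 and Tef. A gene can have several windows and was counted when any of them held the motif. The shares of windows and of genes are therefore not on the same unit. The stretches below show the motif in capitals for the glucocorticoid-induced genes that hold it and for Ciart and Tef.
Sgk1, chr10:21993678-21993738, plus strand: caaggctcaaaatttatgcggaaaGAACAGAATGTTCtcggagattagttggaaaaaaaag
Map3k6, chr4:133240613-133240673, plus strand: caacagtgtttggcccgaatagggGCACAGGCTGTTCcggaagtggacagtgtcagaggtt
Mt1, chr8:94178971-94179031, plus strand: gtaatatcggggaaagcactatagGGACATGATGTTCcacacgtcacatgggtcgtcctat
Ciart, chr3:95882315-95882368, minus strand: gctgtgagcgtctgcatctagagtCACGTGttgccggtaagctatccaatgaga
Tef, chr15:81802522-81802575, plus strand: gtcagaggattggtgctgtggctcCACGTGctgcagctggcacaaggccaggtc

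A match is a description of these letters and not a shown binding site. The motif ended 175 bases before the start of Sgk1, 168 before Map3k6 and 81 before Mt1, and Ciart held 3 copies of the E-box within the window. Of the 3 genes with the inverted repeat, Sgk1 had an unadjusted p under 0.05, while Map3k6 differed by 0.57 (adjusted p = 0.913) and Mt1 by 0.20 (adjusted p = 0.957). Both were named for their promoters. Plin4 and Hif3a did not hold the motif in this window. Map3k6 and Mt1 were at 0.34 and -0.060 without control mouse 2. Omitting control mouse 4 put Mt1 at 0.44. Mt1 was at 0.36 without resilient mouse 1. Omitting resilient mouse 2 put Map3k6 at 0.13 and Mt1 at -0.14. Map3k6 and Mt1 were at 0.97 and 0.33 without resilient mouse 3.

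**Figure D5:**
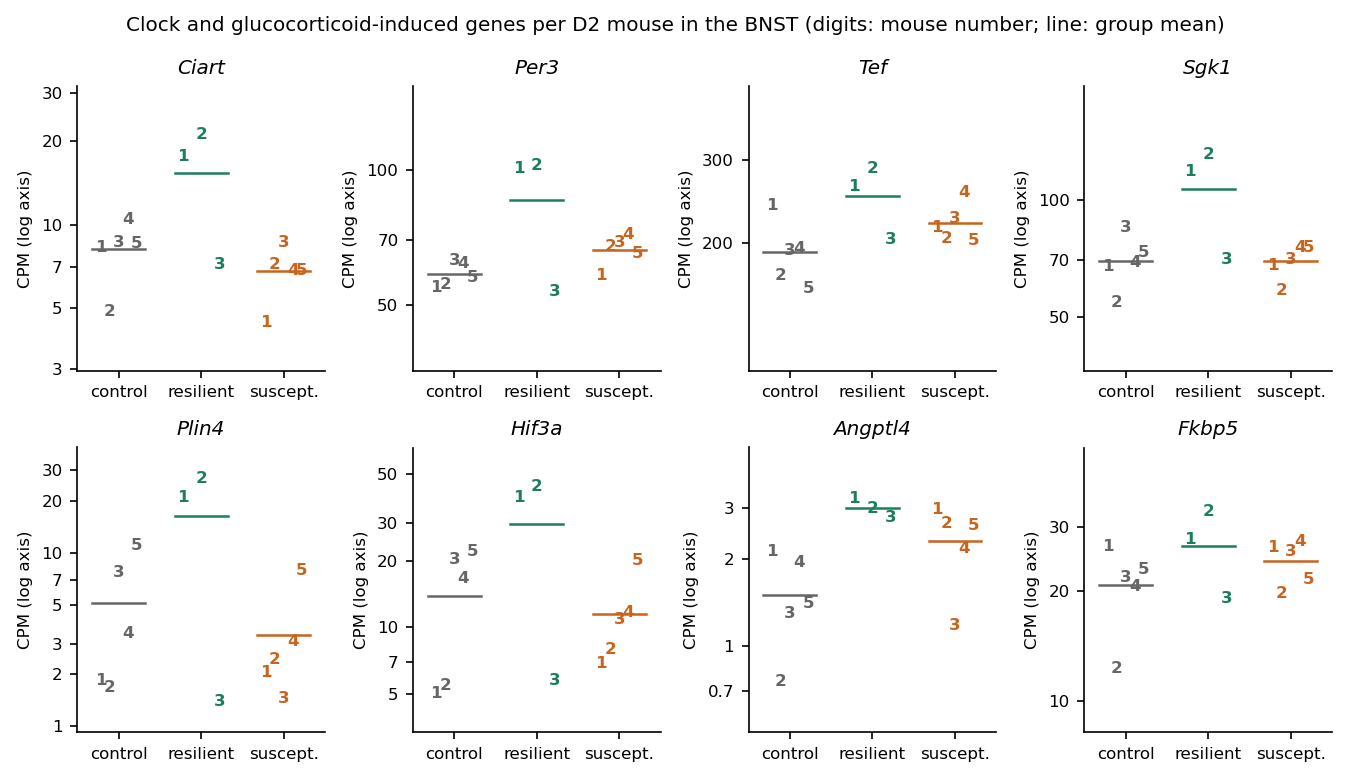
CPM of 8 glucocorticoid-induced and clock genes in each control, resilient and susceptible D2 mouse on a log axis, with mice as numbered points and group means as lines. Resilient mice 1 and 2 lay above the controls for Plin4, Hif3a, Ciart and Per3, while resilient mouse 3 lay below the control median for each of these 4 genes.

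Heat shock and chaperone genes gave 1 higher and 8 lower of 31, 29% against 5.44% of all genes. Their median was -0.29, range -0.35 to -0.25 with 0 to 1 higher and 2 to 10 lower. Without TMM factors, 1 was higher and 1 lower, with a median of -0.12. Hspa1b and Hspa1a, inducible chaperones with near-identical coding sequence whose reads may be split, differed by -1.70 and -0.87, of which Hspa1a did not pass, Chordc1 by -0.69 and Hspa2 by 0.61. Cholesterol synthesis enzymes gave 0 higher and 4 lower of 22, 18.2% against 3.24% of all genes lower (median -0.11, range -0.26 to -0.074 with 0 higher and 1 to 7 lower). Among the 4 were Nsdhl (-0.43), with groups that did not overlap, Hsd17b7 (-0.62) and Cyp51 (-0.56). Chordc1, Hspa2, Hsd17b7 and Cyp51 were at -0.28, 0.40, -0.35 and -0.34 without control mouse 2, where Chordc1, Hspa2, Hsd17b7 and Cyp51 no longer passed. Hspa1b and Hspa1a were at -1.12 and -0.56 without control mouse 3, where Hspa1b no longer passed.

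Immediate early genes, which follow neuronal activity, gave 0 of 25 (median 0.033, range -0.15 to 0.21). Over all genes, 2.2% were higher and 3.24% lower, which also stands beside the lists below. Npas4 was at 20.0, 22.5 and 48.0 CPM in resilient and 16.5, 4.27, 19.6, 19.9 and 6.42 CPM in control mice, above every control with a difference of 1.18 (SE 0.60, adjusted p = 0.902), and Bdnf, a neurotrophin, was below every control at -1.53 (adjusted p = 0.902). Neither passed the unadjusted threshold. Interferon-stimulated genes gave 0 of 28 (median -0.24, range -0.31 to -0.21), MHC and antigen presentation genes 0 of 15 (median -0.064, range -0.23 to 0.032), genes of the mitochondrial genome 0 of 9 (median -0.36, range -0.91 to -0.011, lowest without resilient mouse 3 and nearest 0 without resilient mouse 1), cytosolic ribosomal protein genes 0 of 82 (median 0.099, range -0.050 to 0.26), nuclear respiratory chain genes 2 lower of 82 (median -0.16, range -0.24 to -0.067) and replication-dependent histone genes 1 higher of 40 (median 0.25, range -0.078 to 0.48). Npas4 was at 0.67 without resilient mouse 3.

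Resilient mice were also set against the 5 D2 mice that were susceptible. No gene differed at an adjusted p under 0.05, and 230 genes (1.31%) did so at an unadjusted p under 0.05, 96 higher and 134 lower (0.765%) in susceptible mice. Susceptible against control mice gave 1056 genes at an unadjusted p under 0.05 (6.03%), 314 higher and 742 lower (4.24%). These contrasts share the 5 controls, so their values are given side by side only. Thalamic neuron genes had a median of -1.27 in susceptible and -1.37 in resilient mice against controls, and mature oligodendrocyte genes -0.63 and -0.65. For glucocorticoid-induced genes the medians were -0.21 and 0.38, and for genes of the mitochondrial genome -1.19 and -0.36. The resilient medians have the ranges given above, that of the mitochondrial genes being -0.91 to -0.011. Crhr2 was higher in susceptible than in control mice by 1.07 (SE 0.42, adjusted p = 0.677), and susceptible minus resilient it differed by -0.71. Other genes named above also differed between susceptible and control mice. The values were 1.19 for Ano7, 1.29 for Npbwr1, 0.16 for Mki67, -1.13 for Rxfp1, -0.96 for Nefm, -0.63 for Nefl and -0.37 for Atp2a2. Each had the sign of its resilient difference from the same 5 controls, and none had an adjusted p under 0.05. Between susceptible and resilient mice directly, Ciart differed by -1.17 (SE 0.27, adjusted p = 1.0), Mki67 by -1.36 (SE 0.40, adjusted p = 1.0) and Sgk1 by -0.62 (SE 0.20, adjusted p = 1.0), each lower in susceptible mice. As given above, Ciart and Sgk1 were high in resilient mice 1 and 2 only, and Mki67 was by far the highest in resilient mouse 3. For Mki67, resilient mouse 1 (6.02 CPM) lay below susceptible mouse 3 (7.74 CPM).

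The resilient-minus-control difference was then tested between strains, as D2 minus B6. No gene passed an adjusted p under 0.05 by edgeR, and 588 (3.36%) had an unadjusted p under 0.05, 251 with a higher (1.43%) and 337 with a lower (1.92%) difference in D2. DESeq2 called Atp2a2 and Rxfp1 (adjusted p = 0.0269 for both), or 0.0114% of genes. Rxfp1 differed between strains by -4.71 (SE 1.13, adjusted p = 1.0, edgeR), being 1.65 higher in resilient than control B6 mice. Atp2a2 differed by -0.73 (SE 0.18, adjusted p = 1.0), Ano7 by 2.72 (SE 0.66, adjusted p = 1.0), Nefm by -1.64 (SE 0.52, adjusted p = 1.0), Nefl by -1.15 (SE 0.36, adjusted p = 1.0) and Crhr2 by 1.60 (SE 0.63, adjusted p = 1.0). These genes were named for their D2 difference, which is part of the strain contrast, so these values are no separate support for it. In B6 mice, resilient minus control, Nefm, Nefl, Crhr2 and Ano7 differed by 0.12, -0.017, 0.18 and -0.28. B6 resilient mice against their own controls gave 186 genes higher and 142 lower (0.811%) at an unadjusted p under 0.05 (1.87%).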

How the data were processed

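RNA was extracted from dissected BNST, 1 library per mouse, depleted of rRNA with insert-dependent adaptor cleavage, prepared with the NuGEN Ovation Universal kit and sequenced single-end on a NextSeq 500. The authors trimmed reads with the FastX toolkit, removed duplicates with PRINSEQ, aligned with STAR to GRCm38 and counted exon reads per Ensembl gene with HTSeq; the strand setting is not given in the sources used here. The deposited values were raw counts, with no normalization. Duplicate removal without molecular identifiers can lower the counts of abundant genes.

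From these counts, a gene was kept when 6 or more of the 28 BNST libraries reached 1 CPM for it, which left 17515 of 48795. TMM factors and edgeR 4.0.16 robust quasi-likelihood fits used a mean per group over 6 groups, with no covariates, Benjamini-Hochberg adjustment and two-sided tests. DESeq2 1.42.0, limma 3.58.1 and sva 3.50.0 in R 4.3.3 served as alternatives. Log CPM used a prior count of 0.5. Library sets came from the study's sample sheet. Scripts were tested on simulated data with 200 changed genes. P-values measure the spread between mice.

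The members and gene lists were chosen with earlier results of these data known. Named genes had a mean of at least 1 CPM and groups that did not overlap, the 12 highest and 12 lowest by -log10(p) times log2 difference, leaving out predicted genes and pseudogenes, plus up to 4 per list, genes past an adjusted threshold, defining markers and the CRH system. Some genes were counted but are not reported here by name. Alternatives covered the tool, scaling, filter, groups in the fit, library set and each mouse left out.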

Additional observations from a re-analysis of the deposited data

Results flagged for a closer look

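Among 135 groups of 5 D2 control values, for gene lists and named genes, 10 held 1 mouse far from the other 4. Chance gives about 1 in 20 for separate groups, but these groups all come from the same 5 mice. Some named genes are also list members or were chosen by their control values, so the 10 cannot be compared with that rate. Control mouse 2 was the mouse in 7 of them. Its mean log2 CPM was 4.48 for oligodendrocyte progenitor genes (next control 5.30), 2.23 for mural genes (next 3.46), -0.84 for replication-dependent histone genes (next 1.48) and 1.89 for collagen and basement membrane genes (next 2.54). On the log2 CPM scale it was also low for Map3k6, at -0.70 (next 1.28), and Cfap126, at -4.97 (next -1.38), and high for Gad2, at 10.21 (next 9.12).

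Control mouse 5 was high for Adamts8, at 1.71 (next 0.12). Control mouse 1 was low for Ermn, at 5.57 (next 7.00), and high for Otp, at 2.04 (next -0.70). Of 129 contrasts of D2 with B6 mice, 0 had every mouse of one strain moving one way and every mouse of the other strain the opposite way.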

How the results depend on the processing

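The count at an unadjusted p under 0.05, 953 of 17515 genes tested, changed with the genes and mice in the fit. It was 1641 of 40096 with no low-count filter and 278 of 15537 with only the groups compared. With only the 3 D2 groups it was 626 of 16654, and within library set 1 it was 632 of 16700. With single mice left out it lay between 404 of 17473 (without resilient mouse 2) and 1800 of 17482 (without control mouse 1). Without resilient mouse 3 it was 634. The count at adjusted p under 0.05 was 0 with each mouse left out and 3 with DESeq2. For susceptible against resilient mice it was 0 to 1 with single mice left out, the 1 being Ciart without resilient mouse 3 (adjusted p = 0.0358), and for the difference between strains it was 0 with each mouse left out and 2 with DESeq2; the fit of only the 3 D2 groups cannot give the latter. Crh, at -0.063, was 1.42 with voom, 1.38 after ComBat, 0.093 with the library set as a covariate, 0.20 without TMM factors, 0.084 without control mice 2 and 5, and -0.38 to 0.49 with single mice left out (positive without control mice 1 or 2 or resilient mouse 1). Gad2, at -0.21, was 0.0046 without TMM factors, 0.097 without control mice 2 and 5 and -0.30 to 0.13 with single mice left out (positive without control mouse 2). Mt1, at 0.20, was -0.082 without control mice 2 and 5 and -0.14 to 0.44 with single mice left out (negative without control mouse 2 or resilient mouse 2). For these the cause was not tested. Over 94 named genes, 1920 of 1936 alternative values kept their direction and their side of the adjusted threshold, 14 changed sign and 2 (Ano7 and Atp2a2 in DESeq2) passed the threshold. This count is no measure of robustness. Many of these genes were chosen for large differences in the same mice, and the lowest adjusted p was 0.783 by edgeR. A difference that shrank also counted as kept, such as that of Dnah12, at 0.19 without resilient mouse 3. Library set 1 alone and the fit without control mice 2 and 5 were chosen after seeing the data. No paired analysis was possible because the groups held different mice and replicate numbers were given in accession order. Depth limited genes of a few CPM, such as Ano7 and Crh.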
